A study of Mus musculus with 16 samples.

Results

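The genes described here are the cytosolic ribosomal protein genes of mouse gastrocnemius muscle, which encode the proteins of the ribosome outside mitochondria. They were chosen by symbol alone: of the 35415 genes in the count table, 82 had a symbol made of Rpl or Rps and a number, with or without a final a, x or l, or were Rplp0, Rplp1, Rplp2 or Rpsa. Of these, 48 were large subunit genes, 3 were stalk genes of the large subunit and 31 were small subunit genes. The rule misses some genes that also encode ribosomal proteins, such as Rps3a1, Fau and Rack1, and the related genes Rpl22l1, Rpl36al and Rpl7l1. It takes in Rpl6l and Rpl32l, which GENCODE types as pseudogenes, so that 80 of the 82 were annotated as protein coding.

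The muscles came from male wild type BALB/c mice, aged 8 weeks at purchase. Mice of the control group (C) had neither tumor nor training. Mice of the exercise group (E) ran on a treadmill at 14 m/min for 60 min a day, 6 days a week, for 4 weeks. Mice of the tumor-bearing group (T) were inoculated under the skin with CT26 cells, a mouse colon carcinoma line, and mice of the tumor-bearing plus exercise group (TE) received both. RNA of 4 of the 12 mice in each group was sequenced, and each library is named here by its group and replicate number, as in TE4. The labels state inoculation, give no tumor size and place all 16 libraries in batch 1. The study's text says that every T mouse formed a tumor but not every inoculated TE mouse did. Whether each sequenced TE mouse did is not known here, so that the tumor effects below that include TE are effects of inoculation.

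Most ribosomal proteins are present in a single copy per ribosome, the acidic stalk proteins Rplp1 and Rplp2 in more, and the genes for these proteins are known to be expressed together at high levels in nearly all cells. Their mRNAs start with a cytosine and a run of pyrimidines, the 5′ terminal oligopyrimidine tract, through which mTOR signaling controls their translation. Translation is therefore regulated to a large extent without a change in the amount of these mRNAs, which is the quantity measured here. Skeletal muscle is known for Rpl3l, a striated muscle paralog that takes the place of Rpl3 in the large subunit.

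The starts of the genes are shown because the tract is the sequence feature that the family is known to share. An entry in the RefSeq promoter table (GRCm38.p6) was found for 61 of the 82 genes. In each line below the first 15 bases lie before the annotated start and the other 15 begin at it, positions are those of the identical sequence in GRCm39, and capitals mark a tract, meaning a C at the start followed by 4 or more C or T. The first lines are members with a tract.
Rps6, chr4:86775590-86775619, minus strand: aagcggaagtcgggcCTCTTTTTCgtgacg
Rps18, chr17:34174625-34174654, minus strand: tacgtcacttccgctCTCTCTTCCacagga
Rps27, chr3:90120941-90120970, minus strand: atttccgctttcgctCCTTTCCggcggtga
Rpl28, chr7:4795949-4795978, plus strand: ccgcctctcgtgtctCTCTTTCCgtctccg
Rpl35, chr2:38895129-38895158, minus strand: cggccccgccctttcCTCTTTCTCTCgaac
Rpl38, chr11:114559391-114559420, plus strand: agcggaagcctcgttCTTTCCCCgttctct
Rplp2, chr7:141027549-141027578, plus strand: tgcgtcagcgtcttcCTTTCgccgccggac
The upstream starts of the paralogs Rpl3l and Rps27l held no tract at the annotated base itself, although both hold one within 10 bases of it.
Rpl3l, chr17:24946785-24946814, plus strand: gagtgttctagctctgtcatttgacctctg
Rps27l, chr9:66853353-66853382, plus strand: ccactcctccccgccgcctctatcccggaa

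The tract lay exactly at the annotated start in 14 of the 61 members with an entry (23.0%) and in 3.0% of the 27025 genes of the table. With its C allowed from 10 bases before to 10 bases after the annotated start, it was found in 39 members (63.9%) and in 34.4% of all genes. The sequence CCGGAAG, the core of sites for ETS family factors, occurred on one strand or the other of the 300 bases in 25 members (41.0%) and in 9.9% of all genes. These are matches of letters to annotated starts and not measured start sites or bound sites.

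In GENCODE on GRCm39 the 82 genes lay on 19 chromosomes. Of the 78 tested protein-coding members, 29 (37.2%) held at least 1 annotated small nucleolar RNA within the gene, 57 in all, compared with 1.66% of the 13196 tested protein-coding genes. Small nucleolar RNAs guide the modification of ribosomal RNA and are processed from introns. A near-identical copy elsewhere in the genome, with at least 95% identity over at least 80% of the coding sequence, was found for 70 of the 82 members, with a median of 5 copies and 562 copies in all. Rpl21 had the most copies, 56, followed by Rpl7a with 30, Rps2 with 29 and Rpl29 with 28, while Rpl3l and Rps27l had 0. The treatment of reads that match several places is not given in the sources used here, so that the levels of genes with many copies are uncertain. At least 1 annotated gene on the opposite strand overlapped 49 of the 82 members, and the strand setting of the counting is not given either.

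Of the 82 genes, 79 passed the filter on low counts and were tested among 14749 genes. The others were Rpl10l, a paralog known from testis, which was at 0 counts in each of the 16 libraries, Rpl39l with 0 to 11 counts and the pseudogene Rpl32l with 2 to 13 counts. Library totals ranged from 35628211 to 37635741 counts, and 3 counts, the upper limit that a count of 0 allows, correspond to at most 0.0842 CPM, counts scaled to library size. The levels below are fragments per kilobase of gene length, scaled to library size (FPKM), which allow a comparison between genes.

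Most members were among the abundant mRNAs of the muscle. The median of the mean FPKM was 187 over the 79 tested members and 2.85 over all tested genes, and 61 of the 82 members had a mean FPKM of at least 100. Of the 100 genes with the highest FPKM, 10 were members, and of the 500 highest, 63 were. Together the members took between 3.20% and 4.24% of a library's summed FPKM.

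The highest level belonged to Rplp1, an acidic protein of the stalk that contacts elongation factors, at a mean FPKM of 755 ± 87.0 (SD over 16 libraries). It was followed by Rpl41, a very small basic protein, at 699 ± 59.6, by Rpl28 at 554 ± 47.4 and by Rps15 at 553 ± 43.9. Rplp1 and Rpl41 differed by less than the SD of Rplp1, and Rpl28 and Rps15 differed by less than their SDs, whereas the step from Rpl41 to Rpl28 was larger than either SD. At the low end of the tested members, Rps27l had a mean FPKM of 20.7 ± 1.69, the pseudogene Rpl6l 17.5 ± 1.73, Rpl29 9.30 ± 0.803 and Rpl21 1.98 ± 0.345. From Rpl21 to Rplp1 the mean levels spanned 381-fold.

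Low levels were found among members with many copies and among members with few. Of the 18 members with at least 10 near-identical copies the median FPKM was 145, and of the 61 tested members with fewer copies it was 201. Rpl21, the lowest tested member, also had the most copies, but Rpl7a, with 30 copies, had a mean FPKM of 214. The gene length that the FPKM values imply was 5136 bases for Rps15a, with a mean FPKM of 26.2, and 2748 for Rps27l. It was 1169 for Rpl29 and 945 for Rpl6l, which were lower still, and 1861 for Rpsa, with a mean FPKM of 236. The part of copies and of length in the levels was not tested.

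**Figure D1:**
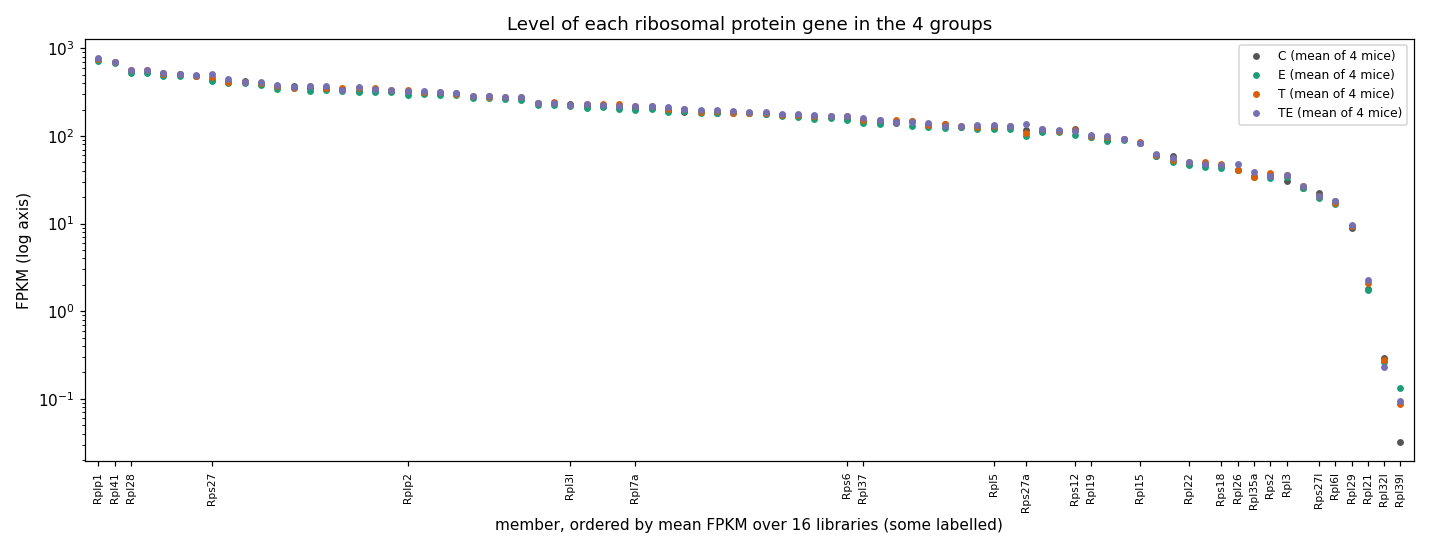
Mean FPKM (log axis) of each member in the C, E, T and TE groups, with 4 mice a group and members ordered by their mean over the 16 libraries, of which some are labelled; Rpl10l, at 0, is not drawn. The group means of each tested member nearly coincide beside the 381-fold span between Rplp1 and Rpl21, and Rpl32l and Rpl39l lie lowest.

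The family's share of a library's counts varied within groups. The members took 1.51%, 1.49%, 1.34% and 1.38% of the counts in C1 to C4, a mean of 1.43% ± 0.0844 (SD, n = 4). They took 1.41%, 1.30%, 1.42% and 1.36% in E1 to E4, a mean of 1.37% ± 0.0557. The shares were 1.41%, 1.30%, 1.58% and 1.58% in T1 to T4, a mean of 1.47% ± 0.136. TE4 had the highest share of all libraries. In TE1 to TE4 the shares were 1.42%, 1.36%, 1.43% and 1.71%, a mean of 1.48% ± 0.158. The ranges of this share, which rests on library totals, overlapped in the 4 groups, and the largest difference of group means, TE against E, was smaller than the SD within the TE group.

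The members moved together from library to library. For each library, the deviation of a member is its log2 CPM minus its own mean over the 16 libraries. The median deviation over the 79 members was 0.14, 0.03, -0.13 and -0.07 in C1 to C4. It was -0.06, -0.16, -0.08 and -0.09 in E1 to E4, below 0 in each trained mouse without a tumor. Values of 0.06, -0.13, 0.11 and 0.17 were found in T1 to T4, and of -0.02, -0.04, 0.04 and 0.24 in TE1 to TE4. On this scale, which uses TMM factors, E and TE did not overlap, with means of -0.096 ± 0.044 (SD, n = 4) and 0.053 ± 0.13. In TE4 78 of the 79 members lay above their own mean, in T4 77 and in C1 and T3 74, while in C3 1 member did so and in T2 and E2 2.

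**Figure D2:**
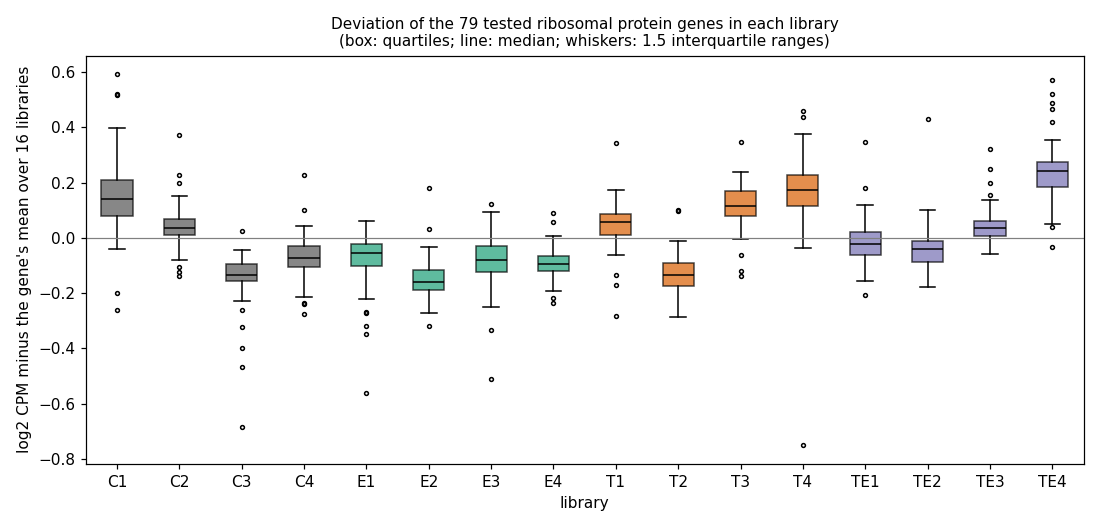
Deviation of the 79 tested members in each of the 16 libraries, as log2 CPM minus the gene's mean over the libraries (box, quartiles; line, median; colors, groups). The median lies above 0 in C1, C2, T1, T3, T4, TE3 and TE4 and below 0 in the other libraries, among them E1 to E4.

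Subtracting the family's median deviation from each library lowered the SD within groups in 77 of the 79 members, and the median of these SDs went from 0.125 to 0.0568 on the log2 scale. The median was taken from the same members, so this is a description. The same subtraction lowered the SD within groups in 21.2% of the 14670 other tested genes. The 2 members whose SD did not become smaller were Rpl3l and Rps2. The within-group SD of the family's median deviation was 0.113.

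Some libraries also stood apart in markers of other cells. The 14 lymphocyte and lymph node markers summed to 158 CPM in TE4 and to 5.62 to 8.74 CPM in the other TE libraries, yet they summed to 58.1 CPM in C3, where the family was low, and to 4.92 to 10.5 CPM in T. In E, where the family was low, they summed to 13.8 to 48.8 CPM, and in the other C libraries to 8.95 to 24.3 CPM. The 3 markers of regenerating fibers summed to 134 CPM in T4 and to 29.1 to 46.2 CPM in the other 15 libraries. Neutrophil markers summed to 7.86 to 42.0 CPM in the T and TE libraries and to 0.622 to 3.82 CPM in C and E, and erythroid markers to 464 to 799 CPM and 227 to 365 CPM. Macrophage markers summed to 66.2 CPM in T3, 64.4 CPM in T4 and 51.01 CPM in TE4, where the family was high, to 53.2 CPM in E3 and 41.1 CPM in E2, where the family was low, and to 46.5 CPM in C2, while C1, another library where the family was high, had 30.3 CPM. Slow fiber markers summed to 1117 CPM in T3 and 1640 CPM in T4, and to 416 to 593 CPM in the other T and TE libraries, with 472 CPM in TE4, where the family was highest. In C4, where the family was low, they summed to 1089 CPM. Fibroblast and tendon markers summed to 549 to 762 CPM in E, to 321 to 512 CPM in C and to 330 to 472 CPM in TE, and endothelial markers to 536 to 574 CPM, 393 to 527 CPM and 368 to 496 CPM, so that E overlapped neither C nor TE in these sums. T overlapped E in both, with 704 CPM of the fibroblast and tendon markers in T4 and 547 CPM of the endothelial markers in T3, libraries where the family was high. C1, where the family was high, had 8.95 CPM of the lymphocyte and 41.3 CPM of the regenerating fiber markers. No marker of these lists was at 0 in all libraries, and myofiber markers, which check the labelled tissue, summed to 103177 to 121390 CPM in every library. The part of these cells in the family's level was not tested, and a larger share of RNA-rich cells cannot be told apart here from more mRNA in each fiber.

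Over the 16 libraries the SD of log2 CPM had a median of 0.128 over members and of 0.119 over the 4678 other tested genes in the range of levels that held the middle 90% of members. Rps27a, which encodes a fusion of ubiquitin and a small subunit protein, varied most, with an SD of 0.40. Its FPKM was 116, 148, 71.3 and 132 in C1 to C4 and 90.9, 129, 82.8 and 102 in E1 to E4. Its values were 135, 99.96, 129 and 65.8 in T1 to T4 and 144, 105, 136 and 170 in TE1 to TE4, so that every group overlapped every other. The next most variable members were Rpl26 with an SD of 0.28, Rps18 with 0.27, Rpl21 with 0.26 and Rps27 with 0.24. Rpl3l varied least, with an SD of 0.0788, followed by Rpl15 with 0.0795 and Rpl19 with 0.0917.

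The comparison of T with C asks whether tumor burden changed the family's mRNAs. No member was called at an adjusted p under 0.05 by edgeR's quasi-likelihood test, where 0.678% of all tested genes were called, and DESeq2 called 0 members as well. The log2 fold change was above 0 in 70 members and below 0 in 9, with a median of 0.07 and a median SE of 0.086, and the median over all tested genes was -0.00. Only Rpl3 (1.27% of members) had an unadjusted p under 0.05, a threshold that 14.2% of all tested genes passed and 8.23% passed as higher, and leaving out 1 library gave from 0 such members, without C3, C4, T1, T3 or T4, to 6 without T2 (7.59%, beside 16.1% of all tested genes in that fit). In 0 members did the groups not overlap in log2 CPM, compared with 6.86% of all tested genes. Without C3 the number of members above 0 was 47, without T4 it was 45, and without C1 it was 75.

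Rpl3, a core protein near the peptidyl transferase center, had the smallest p in this comparison. Its FPKM was 26.9, 35.3, 30.7 and 29.0 in C1 to C4 and 33.0, 28.8, 38.7 and 42.9 in T1 to T4. The groups overlapped, with T1 and T2 inside the range of C. The log2 fold change was 0.26 ± 0.12 (SE), with an adjusted p of 0.349 by edgeR. Rps6, the small subunit protein phosphorylated downstream of mTOR, was also among the 3 members with the smallest p, at 0.13 ± 0.076 (edgeR adjusted p = 0.469). Rpl3 had 0.16 without T4, and Rps6 had 0.08 without T3.

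The comparison of E with C asks for the effect of training without a tumor. No member was called by edgeR, where 0.0881% of all tested genes were, and none by DESeq2. The log2 fold change was below 0 in 76 members and above 0 in Rpl3, Rpl35a and Rpl29, with a median of -0.09, compared with a median of 0.00 over all tested genes. An unadjusted p under 0.05 was found for 3 members (3.80%), all lower in E, where 14.2% of all tested genes passed and 5.67% passed as lower. In 0 members did the groups not overlap, compared with 9.08% of all tested genes. Leaving out 1 library gave from 1 member under an unadjusted p of 0.05, without C1, C2 or E2, to 12 without C3 (15.2%, beside 15.3% of all tested genes in that fit). That number was 1 with library totals (1.27%, beside 13.9% of all tested genes in that fit). It was 6 with the C and E groups alone (7.59%, beside 16.6%) and 7 with upper quartile factors (8.86%, beside 14.6%). Without C1 61 members lay below 0.

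Rps27l, a paralog of Rps27 that is known as a p53 target, had the smallest p. Its FPKM was 23.1, 24.6, 20.1 and 21.4 in C1 to C4 and 19.0, 17.6, 21.3 and 19.7 in E1 to E4. E3 lay inside the range of C and the other 3 trained mice lay below it. The log2 fold change was -0.24 ± 0.076 (SE), with an adjusted p of 0.188 by edgeR. Rps12 followed with -0.24 ± 0.098 (edgeR adjusted p = 0.290) and Rpl36a with -0.23 ± 0.10 (edgeR adjusted p = 0.330), both parts of the ribosome's core set. Without C1 the value of Rpl36a was -0.11.

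The comparison of TE with T asks for the effect of training in inoculated mice. No member was called by edgeR or by DESeq2, and of all tested genes 0% were called by edgeR. The log2 fold change was above 0 in 42 members and below 0 in 37, with a median of 0.00 against 0.00 over all tested genes. An unadjusted p under 0.05 was found for 0 members, where 5.88% of all tested genes passed, and 0 members had groups that did not overlap, where 2.58% of all tested genes did. The split depended on single libraries: 67 members were above 0 without T4, 64 without TE2 and 9 without T2 or without TE4.

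Rps2, a small subunit protein at the mRNA entry, had the smallest p, with FPKM of 37.2, 37.2, 36.1 and 41.5 in T1 to T4 and 30.8, 37.0, 34.3 and 37.3 in TE1 to TE4. The log2 fold change was -0.14 ± 0.085 (SE, edgeR adjusted p = 0.886). Rps27a had 0.35 ± 0.23 (edgeR adjusted p = 0.899) and Rpl35a 0.18 ± 0.12 (edgeR adjusted p = 0.904). Single libraries moved these values: Rps2 had -0.09 without T4 and -0.08 without TE1, Rps27a had 0.18 without T4, and Rpl35a had 0.28 without T4 and 0.05 without TE4. The groups overlapped in each of these members.

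The comparison of TE with E asks for the effect of the tumor among trained mice. Here the log2 fold change was above 0 in each of the 79 tested members, between 0.05 for Rpl15 and 0.50 for Rps27a, with a median of 0.15 against 0.00 over all tested genes. No member was called by edgeR, where 0.231% of all tested genes were, and none by DESeq2. At an unadjusted p under 0.05 there were 21 members (26.6%), all higher in TE, where 9.23% of all tested genes passed and 3.70% passed as higher. DESeq2 gave 27 such members (33.3% of the 81 it fitted, beside 6.65% of all genes it fitted) and a fit of the E and TE groups alone 36 (45.6%, beside 11% of all tested genes). With library totals in place of TMM factors there were 2 (2.53%, beside 9.71%), with a median of 0.11 where the median over all tested genes was -0.05.

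The count of 21 depended on single libraries, TE4 above all. Without TE4 there were 3 members (3.80%) under an unadjusted p of 0.05, below the 8.35% of all tested genes in that fit, with a median log2 fold change of 0.10 and 78 members above 0. Without E2 there were 10 such members (12.7%, beside 8.5%), without TE3 13 (16.5%, beside 8.73%), without E4 14 (17.7%, beside 8.43%) and without TE2 35 (44.3%, beside 8.5%). In 17 of the 79 members (21.5%) every TE library lay above every E library in log2 CPM, where 6.62% of all tested genes did not overlap and 2.67% lay higher. Among them were Rpl5, Rpl7, Rpl7a, Rpl10a, Rpl11, Rpl13a, Rpl22, Rpl24, Rpl27, Rpl28, Rpl31, Rpl36, Rpl37, Rps25 and Rps27l. Leaving out TE4 cannot take a member out of this set, so it is no check of it. It added 0 members, while the share of all tested genes became 10.5% for groups that did not overlap and 4.46% for those that lay higher.

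Rpl5 and Rpl37 were among the 3 members with the smallest p. Rpl5, which forms a complex with 5S rRNA and can bind Mdm2, had FPKM of 123, 119, 120 and 116 in E1 to E4 and 130, 126, 125 and 154 in TE1 to TE4. Its 4 TE values lay above the 4 E values, and the log2 difference was 0.21 ± 0.075 (SE, edgeR adjusted p = 0.356). Rpl37 had 141, 134, 152 and 141 in E1 to E4 and 153, 144, 150 and 189 in TE1 to TE4, a log2 difference of 0.22 ± 0.079 (SE, edgeR adjusted p = 0.386). The FPKM of Rpl37 overlapped between the groups, whereas its log2 CPM, which is scaled by TMM factors, did not.

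**Figure D3:**
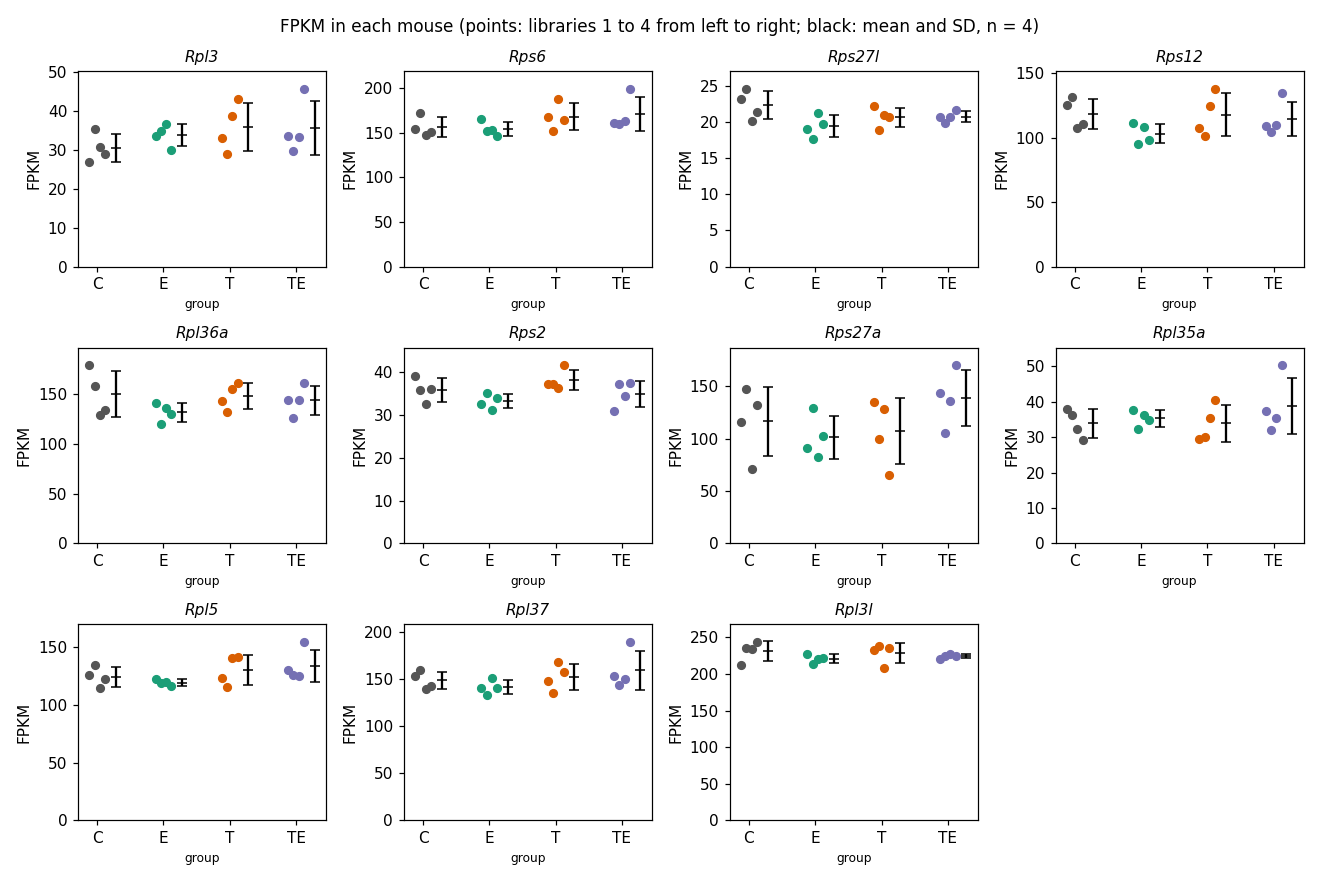
FPKM (from 0) in each mouse for members among the 3 smallest p-values in a pairwise comparison and for Rpl3l, by group, with the mean and SD of 4 mice in black. TE4 is the highest TE point in every member drawn except Rpl3l, which is flat.

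Averaged over training, the effect of the tumor was above 0 in each of the 79 members, between 0.03 for Rps27l and 0.34 for Rpl21, with a median of 0.11 and a median over all tested genes of 0.00. edgeR called 0 members, where 1.36% of all tested genes were called, and DESeq2 called 1 of 81 (1.23%), where it called 2.01% of all genes. At an unadjusted p under 0.05 edgeR gave 27 members (34.2%), all higher with a tumor, where 14.2% of all tested genes passed and 7.41% passed as higher.

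This count moved with single libraries and with the scaling. It was 9 without TE4 (11.4% of members, beside 14.3% of all tested genes in that fit), 10 without C3 (12.7%, beside 13.3%) and 10 without C4 (12.7%, beside 12%). It was 14 without T3, 15 without T4 or without E2 and 18 without E4, from 17.7% to 22.8% of members beside 13.4% to 14% of all tested genes. It was 43 without T2 (54.4%, beside 15.5%) and 46 without C1 (58.2%, beside 14.6%). With upper quartile factors it was 17 (21.5%, beside 14%). With library totals in place of TMM factors it was 3 (3.80%, beside 14.5%), so that the members' share lay below that of all tested genes without TE4, without C3 and with library totals. In the fit with library totals 77 members were above 0, the median was 0.07, and the median over all tested genes was then -0.04.

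Averaged over tumor status, the effect of training was below 0 in 72 of the 79 members, with a median of -0.04 and 0.01 over all tested genes. The median was -0.02 without C1, where 54 members lay below 0, -0.07 without T2 and -0.08 without TE4. edgeR called 0 members, where 0.00678% of all tested genes were called, and DESeq2 called 0. Below an unadjusted p of 0.05 were 4 members (5.06%), namely Rps2, Rps27l, Rpl38 and Rps12, all lower with training, where 10.8% of all tested genes passed and 4.8% passed as lower. Leaving out 1 library, that number ranged from 0 without C1 to 9 without T2 (11.4%, beside 9.07% of all tested genes in that fit), and 7 was found without TE4 (8.86%, beside 10.2%). With library totals 22 members were above 0 rather than 7.

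The interaction, which is the difference between the training effect with a tumor and that without, was above 0 in 77 of the 79 members, with a median of 0.09 and -0.00 over all tested genes. edgeR and DESeq2 called 0 members, and edgeR called 0% of all tested genes. The interaction had an unadjusted p under 0.05 in 1 member (1.27%), Rps27l, at 0.23 ± 0.11 (SE, edgeR adjusted p = 0.540), where 9.21% of all tested genes passed. Leaving out 1 library gave from 0 to 4 such members, the most without C3 (5.06%, beside 9.89% of all tested genes in that fit). Without TE4 the median was 0.03 and 62 members were above 0. T vs C and E vs C share the C mice, E vs C and TE vs E share the E mice, and the values of these comparisons are therefore not independent.

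**Figure D4:**
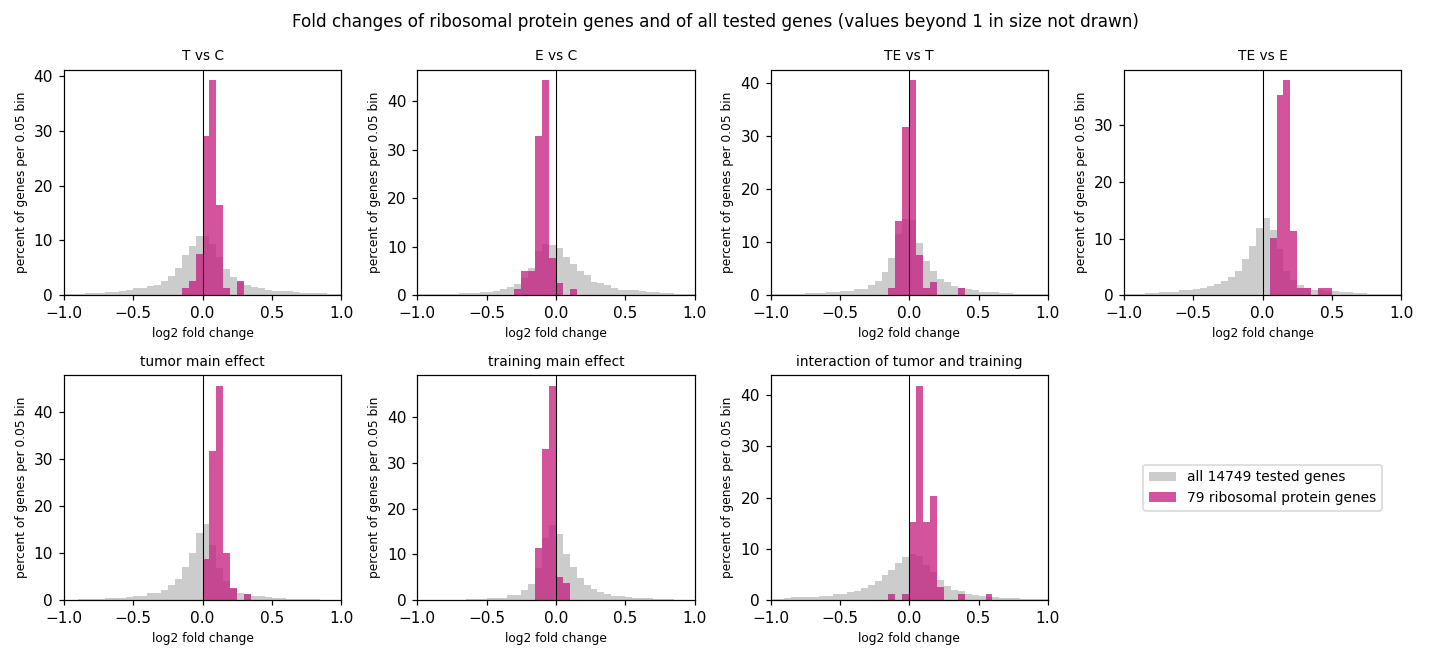
Distribution of the log2 fold change over the 79 tested members (pink) and over the 14749 tested genes (grey) in the 7 contrasts, as percent of genes per bin of 0.05, with values beyond 1 in size not drawn. The members form a narrow peak, with medians of 0.07 in T vs C, -0.09 in E vs C, 0.00 in TE vs T and 0.15 in TE vs E.

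The large and the small subunit had similar medians. In TE vs E the median was 0.15 over 45 tested large subunit genes, 0.16 over 31 small subunit genes and 0.15 over the 3 stalk genes, and in E vs C these were -0.09, -0.11 and -0.11. The 13 tested members with a tract at the annotated start had a median of 0.14 in TE vs E and of 0.08 in T vs C. The 45 tested members with an entry and no tract at that base had 0.15 and 0.07. Of the 29 members that hold small nucleolar RNAs the median in TE vs E was 0.18, and of the other 50 it was 0.14. These are descriptions, and no class was tested against another.

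The stalk proteins recruit the factors that drive elongation. Rplp0, the base of the stalk, had FPKM of 223, 225, 220 and 217 in C1 to C4 and 218, 206, 244 and 259 in T1 to T4. Rplp1 had a mean FPKM of 755 ± 107 (SD, n = 4) in C, 722 ± 68.6 in E, 766 ± 95.1 in T and 776 ± 101 in TE. Rplp2 had 320 ± 35.9 in C, 296 ± 9.87 in E, 335 ± 52.1 in T and 323 ± 43.8 in TE. The groups overlapped in each of these genes, and the largest log2 fold change among their pairwise comparisons was 0.17 ± 0.11 (SE, edgeR adjusted p = 0.662) for Rplp2 in TE vs E.

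Rpsa, which is also known as a laminin receptor, had a mean FPKM of 236 ± 9.59 (SD, n = 4) in C, 225 ± 9.54 in E, 244 ± 24.98 in T and 239 ± 21.3 in TE. Rps6, whose start with its tract is printed above, had FPKM of 154, 172, 148 and 151 in C1 to C4 and 165, 152, 153 and 147 in E1 to E4. It had 168, 152, 188 and 164 in T1 to T4 and 161, 160, 163 and 199 in TE1 to TE4. TE4 was apart from the other TE mice, which lay inside the range of C. The tumor effect on Rps6 averaged over training was 0.16 ± 0.054 (SE, edgeR adjusted p = 0.170).

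Some ribosomal proteins have a second gene, and the ratio of the paralog to its parent asks whether the make-up of the ribosome's mRNAs differed between groups. Rpl3l and Rpl3 shared 74.8% of 1202 aligned coding bases, Rps27l and Rps27 76.2% of 252, and Rpl22l1 and Rpl22 73.3% of 360. The first 60 coding bases of the first of these pairs are printed with the bases that differ in capitals, because they show how far reads of a paralog and its parent can be told apart.
Rpl3: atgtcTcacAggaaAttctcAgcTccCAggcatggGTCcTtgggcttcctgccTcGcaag
Rpl3l: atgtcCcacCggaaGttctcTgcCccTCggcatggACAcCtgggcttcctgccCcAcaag
In Rps27 and Rps27l 18 of the first 60 bases differed, compared with 13 in the lines above.
Rps27: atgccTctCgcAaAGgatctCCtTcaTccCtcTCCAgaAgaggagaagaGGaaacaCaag
Rps27l: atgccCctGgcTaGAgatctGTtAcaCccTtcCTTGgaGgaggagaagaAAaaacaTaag

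Rpl3l exceeded Rpl3 in every muscle. Rpl3l had FPKM of 213, 235, 235 and 243 in C1 to C4, 228, 213, 221 and 222 in E1 to E4, 232, 239, 208 and 235 in T1 to T4, and 220, 225, 227 and 225 in TE1 to TE4. Its ratio to Rpl3 in FPKM was 7.89, 6.66, 7.63 and 8.39 in C1 to C4 and 6.79, 6.13, 6.05 and 7.38 in E1 to E4. The ratio was 7.05, 8.28, 5.38 and 5.48 in T1 to T4 and 6.56, 7.60, 6.83 and 4.93 in TE1 to TE4. The lowest ratios were found in TE4, T3 and T4, libraries in which the family stood high, but C1, in which it also stood high, had one of the highest ratios.

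The log2 ratio of Rpl3l to Rpl3 was 2.93 ± 0.14 (SD, n = 4) in C, 2.72 ± 0.14 in E, 2.69 ± 0.30 in T and 2.68 ± 0.27 in TE. An exact two-sided permutation test of 4 against 4 mice, whose smallest possible p is 0.0286, gave p = 0.229 for T vs C with a difference of -0.24. The same exact test gave p = 0.0857 for E vs C with a difference of -0.21, and after Benjamini-Hochberg adjustment over 12 tests both had an exact adjusted p of 0.392. In TE vs T and TE vs E the differences were -0.01 and -0.04, with exact adjusted p of 0.971 and 0.966.

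Rps27l lay far below Rps27 by FPKM. The log2 ratio was -4.28 ± 0.19 (SD, n = 4) in C, -4.44 ± 0.090 in E, -4.48 ± 0.26 in T and -4.60 ± 0.19 in TE. The level of this ratio depends on the lengths implied by the FPKM, 2748 bases for Rps27l and 346 for Rps27, whereas differences between groups do not. The groups overlapped and the smallest exact p was 0.171, for E vs C and for TE vs E, each with an adjusted p of 0.392.

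For Rpl22l1, which lies outside the symbol rule, and Rpl22 the ratio was near 1. It was 1.35, 1.18, 0.983 and 1.03 in C1 to C4 and 1.11, 1.43, 1.11 and 1.11 in E1 to E4. In T1 to T4 it was 1.03, 0.969, 1.13 and 1.101, and in TE1 to TE4 1.36, 1.21, 1.26 and 1.42. Each TE mouse had a higher ratio than each T mouse, by 0.31 on the log2 scale, with an exact permutation p of 0.0286, the smallest this design can give, and an adjusted p of 0.343 over 12 tests. Rpl10 had 8794 to 11570 counts where Rpl10l had 0, and Rpl39 had 2116 to 3330 counts where Rpl39l had 0 to 11.

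**Figure D5:**
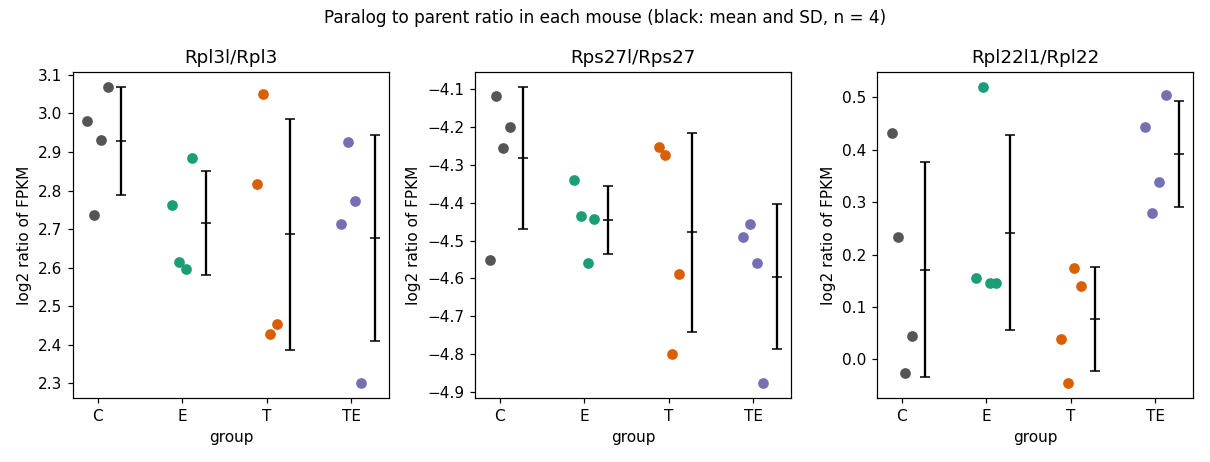
Log2 ratio of FPKM of paralog to parent in each mouse for Rpl3l/Rpl3, Rps27l/Rps27 and Rpl22l1/Rpl22, by group, with the mean and SD of 4 mice in black; the axes do not start at 0. The T and TE points of Rpl22l1/Rpl22 do not overlap, and those of the other ratios do.

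Other genes of translation were counted in the same fit. Of the 6 tested ribosomal protein genes outside the symbol rule, such as Rack1 with a mean FPKM of 250, 0 were called in any contrast, and the median log2 fold change was 0.10 in TE vs E and -0.08 in E vs C. Elongation factors, 10 tested, had 0 calls. Their most abundant members, Eef1a1 at a mean FPKM of 486 and Eef2 at 449, had a tumor effect averaged over training of 0.17 and 0.18, with edgeR adjusted p of 0.472 and 0.0589. Initiation factors, 36 tested, had 0 calls, with 10 under an unadjusted p of 0.05 for that effect, where 14.2% of all tested genes passed, and Eif1, the most abundant, had a mean FPKM of 469. Other mRNAs known for the same tract, 18 tested with Eef1a1, Eef2 and Rack1 again among them, had 0 calls, a median of 0.12 and 7 under an unadjusted p of 0.05 for that effect, with Tpt1 the most abundant at a mean FPKM of 1627. In small nucleolar RNA host genes, 8 tested with Gas5 and Snhg8 the most abundant, and in RNA polymerase I and its factors, 12 tested with Rrn3 and Polr1d the most abundant, 0 were called.

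Calls among related genes were single ones. Of 63 tested ribosome biogenesis factors, with Nop10 and Npm1 the most abundant, 1 was called, the nucleolar helicase Ddx21. Its mean FPKM was 8.68 ± 0.860 (SD, n = 4) in C, 8.94 ± 0.677 in E, 10.2 ± 0.809 in T and 9.84 ± 0.740 in TE, and the tumor effect averaged over training was 0.22 (edgeR adjusted p = 0.0423). Of 30 tested genes of mTOR and 4E-BP signaling, 1 was called, Mknk2, a kinase of the initiation factor eIF4E. Mknk2 had 42.8 ± 1.59 in C, 49.5 ± 3.10 in E, 61.7 ± 14.01 in T and 54.1 ± 2.40 in TE, and was higher in T than in C by 0.55 (edgeR adjusted p = 0.0232) and with a tumor on average by 0.36 (edgeR adjusted p = 0.0179). The most abundant genes of that list, Ddit4l and Lamtor1, had a tumor effect of 0.09 and 0.00. Of 13 tested p53 targets, with Ccng1 and Phlda3 the most abundant, Cdkn1a was called, at 6.09 ± 1.30 in C and 15.2 ± 10.2 in T, with a tumor effect on average of 1.01 (edgeR adjusted p = 0.0295). Rps27l, which is also a known p53 target, was not, at 0.03 ± 0.054 (SE, edgeR adjusted p = 0.872). The share of all tested genes called for that effect was 1.36%.

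Most of these calls depended on single libraries. That of Mknk2 for the tumor effect averaged over training held without each library, with an adjusted p of 0.00535 to 0.0484, and with library totals or a replicate block. Leaving out 1 library, the adjusted p of Mknk2 in T vs C was 0.0667 without C2, 0.0867 without C3 and 0.0830 without C4, and the call held without C1 and without each T mouse. With the C and T groups alone in the fit it was 0.105. That of Ddx21 lay between 0.0583 and 0.102 without C1, C2, C4, E1, E2, E4, T1, T2, T3, TE1, TE3 or TE4, and was 0.146 with library totals in place of TMM factors and 0.0504 with no filter on low counts. For Cdkn1a it lay between 0.0538 and 0.0772 without C3, C4, E1, E3, E4 or TE3, and was 0.0636 with a replicate block and 0.0854 in a robust fit. The log2 fold changes of Mknk2, Ddx21 and Cdkn1a stayed above 0 in each of these fits. Without T3 the tumor effect averaged over training was 0.74 for Cdkn1a and 0.29 for Mknk2.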

How the data were processed

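Gastrocnemius RNA of 16 mice, 4 per group, was analysed, with groups and replicate numbers taken from the sample labels. Replicates are separate mice, and libraries of a group differed by more than counting noise. Per the labels, the submitters' processing notes name fastp 0.20.1, HISAT2 2.1.0, HTSeq 0.11.2, DESeq2 and GRCm39. The authors deposited counts per gene without normalization and FPKM values, which equal the counts divided by library total and 1 length per gene in each of the 79 tested members (tolerance 1%). The annotation release, the strand setting and the treatment of multi-mapping reads are not given in the sources used here. The tables held 0 unassigned columns. Depth ranged from 35628211 to 37635741 counts a library, and counting error is small beside the spread between mice.

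Members were found by symbol. edgeR 4.0.16 in R 4.3.3 was used (filterByExpr, then TMM scaling, then quasi-likelihood tests) with 1 coefficient per group over all 16 libraries. The 4 pairwise contrasts, the tumor and training effects averaged over the other factor, and their interaction were tested two-sided, with Benjamini-Hochberg adjustment over the 14749 tested genes and a threshold of 0.05. The fit was tested on simulated counts. Log2 CPM used a prior count of 2. Paralog ratios used log2 FPKM without a pseudocount, for pairs with at least 10 counts in every library, and SciPy's exact permutation test. Copies were searched with BLAST 2.17.0 in GRCm39, and annotation came from GENCODE. Figures were drawn with matplotlib 3.10.9.

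Named members were those with the 3 smallest p in each pairwise comparison, any called, the 5 highest and 5 lowest by FPKM, the 5 most and 3 least variable, paralogs with their parents, the stalk genes, Rpsa and Rps6. Some members under this rule are not reported here. Related lists are represented by called genes and the members highest by CPM. The members, lists, tests and alternatives were chosen with earlier results of these data known. Alternatives were DESeq2 1.42.0, its size factors, library totals, upper quartile factors, no filter, only the groups compared, a replicate block, a robust fit, other thresholds, other scales for ratios and shares, and each library left out in turn. Members with under 10 copies and TE against E without TE4 were added after seeing the data.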

Additional observations from a re-analysis of the deposited data

Results flagged for a closer look

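Of 148 sets of 4 libraries examined for a library far from the others, over named members, the family's share and the paralog ratios, 8 were flagged. Chance flags about 1 in 20, so that 8 is close to the number chance gives. The sets are not independent either, because the members moved together from library to library. In 6 of the 8 the library was TE4, in which 14 lymphocyte and lymph node markers summed to 158 CPM, and the part of those cells was not tested. TE4 had an FPKM of 121 for Rpl19, with 96.4 to 97.1 in the other TE mice, and of 54.7 for Rpl22, with 48.2 to 49.3 in the others. It had 675 for Rps15 beside 530 to 544, 199 for Rps6 beside 160 to 163, and 270 for Rpsa beside 224 to 231. Rpl39l had an FPKM of 0.317 in TE4 and 0 to 0.0316 in the other TE mice, and 0.128 in C3 where the other C mice had 0, from at most 11 counts. The log2 ratio of Rpl22l1 to Rpl22 was 0.52 in E2 and 0.15 to 0.16 in the other E mice.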

How the results depend on the processing

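With 4 mice a group, the median SE of a member's log2 fold change was 0.086 in the pairwise comparisons, 0.061 for the averaged effects and 0.12 for the interaction, and a p above the threshold does not show that levels were equal. Calls stayed at 0 under each alternative fit of each contrast, except 1 call by DESeq2 for the tumor effect averaged over training. At an unadjusted p under 0.05 there were 1 member in T vs C (1.27%, beside 14.2% of all tested genes), 3 in E vs C (3.80%, beside 14.2%) and 21 in TE vs E (26.6%, beside 9.23%). There were 27 for the tumor effect (34.2%, beside 14.2%), 4 for the training effect (5.06%, beside 10.8%) and 1 for the interaction (1.27%, beside 9.21%). Without TE4 there were 3 in TE vs E (3.80%, beside 8.35%) and 9 for the tumor effect (11.4%, beside 14.3%). Leaving out 1 library moved the median log2 fold change between 0.02 and 0.11 in T vs C, between -0.14 and -0.05 in E vs C, between -0.06 and 0.04 in TE vs T, and between 0.10 and 0.18 in TE vs E. Members with under 10 copies gave medians of 0.07, -0.09, -0.00 and 0.15 in the same order. The difference in log2 ratio of Rpl3l to Rpl3 changed sign in TE vs T, between -0.10 and 0.12, and in TE vs E, between -0.12 and 0.088, when 1 library was left out, and that of Rpl22l1 to Rpl22 did so in E vs C, between -0.022 and 0.16; none passed the threshold and the cause was not tested. With library totals 59 members were above 0 in T vs C rather than 70. Correlations of same-numbered mice ranged from -0.24 to 0.21, and from 0.0551 to 0.107 between T and TE. With so few mice they cannot decide whether the numbers pair them. With a replicate block 0 members were called and the medians were 0.00 in TE vs T and -0.04 for the training effect.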
